A study of Mus musculus with 16 samples.

Results

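The cells described here were chondrocyte-enriched cultures from control mice that received vehicle only, and the question was what these cells express before any mutation or cytokine is added. Cells were released from long bone epiphyses of all 4 limbs of newborn mice, pooled over males and females, and grown to confluence with 10% fetal bovine serum. The control mice were wild-type littermates on a C57BL/6 background and their vehicle was PBS for 6 h. Of the 16 libraries of the series, 4 carry this label and 3 of them, replicates 1 to 3, were taken as the baseline. Replicate 4 was set aside because of its measured values, which are given below with each result that they touch, and not because of its label. Baseline values were set beside 4 libraries of *Notch2tm1.1Ecan* cells with vehicle, heterozygous for a mutation that leaves NOTCH2 without its PEST domain in every cell that expresses it, and beside 4 libraries of control cells exposed for 6 h to 50 ng/ml of TNFα. The sample labels give serum removal for the TNFα groups only and the study's own text gives it for all groups, so that TNFα and serum removal cannot be told apart here.

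Cartilage cells live in a matrix that they build themselves. Type II collagen, stabilized by types IX and XI, forms the fibrils, and aggrecan bound to hyaluronan holds the water that resists compression. SOX9 is the transcription factor that switches this program on, and lubricin, encoded by *Prg4*, is made by the cells at the joint surface. In culture on plastic, chondrocytes are known to take up fibroblast traits such as the synthesis of type I collagen.

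The 3 libraries held 18677402, 13471143 and 15666781 counts on genes, and fragments assigned to no gene were between 9.95 and 10.3% of the total. No 2 of them agreed within counting noise: over genes, the chi-square of their counts per degree of freedom was between 2.08 and 3.73, where counting noise alone gives about 1. The biological coefficient of variation among them was 3.89%. The labels call them biological replicates without naming the litters or cultures, so the spread given here is that between these samples and may be partly technical. The same chi-square against replicate 4 was between 9.31 and 13.5. Of 9629 genes with at least 10 counts per 1000000 counts of the library (CPM) in a library, 103 were more than 2-fold higher in replicate 4 than in the mean of the other replicates and 0 were more than 2-fold lower, whereas replicates 1, 2 and 3 differed that much from the other 2 at 1, 1 and 0 genes. The genes of replicate 4 included TNFα-induced ones: *Ccl2* stood at 14.0, 15.7 and 15.9 CPM in replicates 1 to 3 and at 196 CPM in replicate 4.

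Levels are given on 2 scales. CPM served to compare 1 gene between libraries, and transcripts per 1000000 (TPM), in which each count is first divided by the length of the gene's canonical transcript, served to compare genes with each other. Levels of different genes depend on that length: with the union of all exons in its place, 174 of 424 named genes moved by over 1.5-fold, so an order given below is that of the canonical length. Of the genes in the annotation, 12681 had at least 1 CPM in each of the 3 libraries, among them 11896 of 21627 protein-coding genes (55.0%) and 328 long noncoding RNAs. Protein-coding genes took 98.5% of the counts. The counts were concentrated: the most abundant gene took 3.75%, the 10 most abundant 14.8 ± 0.298% (SD, n = 3), the 100 most abundant 29.8% and the 1000 most abundant 58.1%. Genes of the mitochondrial genome took 0.397 to 0.430% of the counts. A list of 129 structural genes of the extracellular matrix took 18.6 ± 0.459% of all counts and 11.3 ± 0.243% of all TPM, which was more TPM than the 84 ribosomal protein genes together held (9.28 ± 0.0556%).

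**Figure D1:**
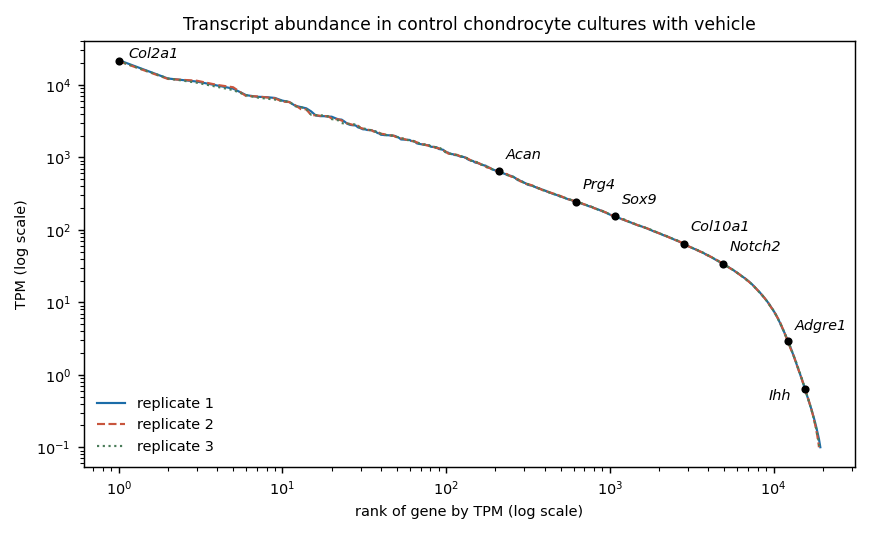
TPM of each gene against its rank in control chondrocyte cultures with vehicle, both on log scales, with 1 line for each of the 3 libraries and points for the mean of named genes. The lines lie on top of each other; *Col2a1* is first, *Acan*, *Prg4* and *Sox9* lie at ranks 209, 622 and 1075, and *Ihh*, at 0.646 TPM, lies at rank 15566.

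The 4 genes that mark the cartilage lineage were all present in all 3 libraries and differed among themselves by 2 orders of level. *Col2a1* (ENSMUSG00000022483, chromosome 15, 97873483 to 97902689 of GRCm39), the chain of type II collagen, was the most abundant transcript of the cultures on both scales. Its level was 22028, 21303 and 21421 TPM in replicates 1, 2 and 3, and 20134 TPM in replicate 4. *Acan* (ENSMUSG00000030607, chromosome 7, 78702964 to 78764847), the aggrecan core protein, was at 670, 656 and 600 TPM. *Prg4* (ENSMUSG00000006014, chromosome 1, 150325163 to 150342009) was at 266, 231 and 236 TPM. *Sox9* (ENSMUSG00000000567, chromosome 11, 112673009 to 112678586) was at 149, 153 and 158 TPM, the lowest of the 4 and rank 1075 among all genes. With the union of exons *Acan*, *Prg4* and *Sox9* were at 1134, 437 and 275 TPM, in the same order. In replicate 4 *Prg4* was at 315 TPM, above each of the other 3 libraries, and *Acan* and *Sox9* were at 668 and 142 TPM.

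Of the 30 protein-coding genes with the highest TPM, 9 encode structural matrix proteins and 7 encode ribosomal proteins. After *Col2a1* came *Sparc* (osteonectin, a collagen-binding glycoprotein) at 12227 ± 106 TPM, *Thbs1* (thrombospondin 1) at 11107 ± 352 TPM and *Fn1* (fibronectin) at 9443 ± 823 TPM. The libraries of these 4 genes did not overlap with each other on this scale. The order depended on the length used: with the union of exons *Thbs1* (19212 TPM) was above *Sparc* (11866 TPM), and *Col1a1* (11191 TPM) was above *Fn1* (8989 TPM), while *Col2a1* was first with each length. *Fn1* overlapped with the next gene, the elongation factor *Eef1a1*, at 9204 ± 267 TPM. *Col1a1*, the cytoskeletal gene *Vim* and *Col1a2* followed at 6916 ± 400, 6691 ± 64.2 and 6539 ± 245 TPM, and the libraries of these 3 overlapped. Within each library *Col1a1* was above *Col1a2*, while the place of *Vim* changed between libraries. *Timp3*, an inhibitor of metalloproteinases that stays bound to the matrix, was at 5980 ± 96.4 TPM. *Comp* (cartilage oligomeric matrix protein) came next at 5841 ± 46.0 TPM. The libraries of these genes overlapped, although *Timp3* was above *Comp* within each library. Over the 30 genes, 13 of 29 neighbouring pairs had no overlap between their libraries. The other structural matrix genes of the group were *Bgn* (biglycan, 4666 TPM) and *Col3a1* (3272 TPM). The collagen chaperone *Serpinh1* (3825 TPM) and the collagen crosslinking enzyme *Lox* (2774 TPM) stood among them too. The remaining genes were mostly of translation, the cytoskeleton, iron storage and mitochondrial respiration: *Actb*, *Ftl1*, *Fth1*, *Tpt1*, *Lgals1*, *Myl6*, *Eef2* and *mt-Co1*. All 30 genes stayed among the 30 when replicate 4 was included and 23 of the 30 did when the union of all exons was taken as the length. Ribosomal protein genes and *Ftl1* have many near-identical pseudogenes, and their levels are uncertain to that degree.

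*Mest*, an imprinted gene expressed from the paternal copy, was the other member of the 30 and stood at 3729 ± 45.2 TPM. This level rested on the short canonical transcript of *Mest*: it was 1045 TPM, outside the 30, with the union of exons and 954 TPM with the longest transcript. The highest level outside protein-coding genes was that of *H19*, a maternally expressed long noncoding RNA, with 6868, 6952 and 7221 TPM in the 3 libraries, in rank between *Eef1a1* and *Col1a1*, although its libraries overlapped with those of *Col1a1*. *H19* and *Mest* led a list of 20 imprinted growth genes, of which 18 were detected and 11 were at 100 TPM or more. *Igf2*, the growth factor gene next to *H19*, was at 197 ± 5.55 TPM, and *Cdkn1c*, a cell cycle inhibitor of the growth plate, at 305 ± 10.9 TPM. A ribosomal RNA gene, *Rn18s-rs5*, that the mRNA selection of the library should remove was at 4938 TPM in replicate 1 and at 3371 and 2979 TPM in replicates 2 and 3.

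The collagens ranged from the most abundant transcript of the cultures to genes at the limit of detection. Of 43 collagen genes listed, 37 were detected, and together they took 9.62 ± 0.198% of the counts and 5.07 ± 0.127% of TPM. All 7 collagen chains of the cartilage fibril were above 100 TPM: after *Col2a1* came *Col11a1* at 1923 ± 46.5, *Col11a2* at 843 ± 13.1, *Col9a1* at 563 ± 12.8, *Col9a3* at 366 ± 15.4, *Col9a2* at 239 ± 13.3 and *Col27a1* at 125 ± 5.74 TPM. Type I, III and V collagens, which make the fibrils of skin, bone and the perichondrium, were as plainly present. *Col5a2* was at 1724 ± 19.3 and *Col5a1* at 1100 ± 53.7 TPM. The beaded filament chains *Col6a1* (2034 ± 21.4 TPM) and *Col6a2* (1096 ± 16.4 TPM), which form the pericellular matrix of chondrocytes, exceeded the basement membrane chains *Col4a2* (213 ± 2.09 TPM) and *Col4a1* (194 ± 5.80 TPM). *Col10a1*, the collagen of hypertrophic cartilage, stood at 66.3, 62.2 and 63.7 TPM. *Col6a5* was the single collagen gene at 3 counts or fewer in each library.

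Ratios between chains, taken within a library, were mostly narrow between libraries. That of *Col6a1* to *Col6a3* was wider, at 2.85, 2.81 and 3.52 in replicates 1 to 3 (3.06 ± 0.398). *Col2a1* exceeded *Col1a1* by 3.13 ± 0.160-fold in TPM, at 3.04, 3.03 and 3.31 in the 3 libraries. This ratio was 1.93 ± 0.0988 when the union of all exons was the length. *Col1a1* was at 1.06 ± 0.0255 times *Col1a2*, whose products join in type I collagen with more chains from *Col1a1*. With the union length the same counts gave 2.25 ± 0.0543, so this ratio depended on the length assigned to each gene. *Col11a1* was at 2.28 ± 0.0601 times *Col11a2* and *Col9a1* at 2.36 ± 0.121 times *Col9a2*, although the chains of type IX collagen are used in equal number. *Acan* was at 26.4 ± 0.971 times *Vcan* (versican, the large proteoglycan of noncartilage tissue and of early limb mesenchyme), and in replicate 4 at 19.5 times.

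**Figure D2:**
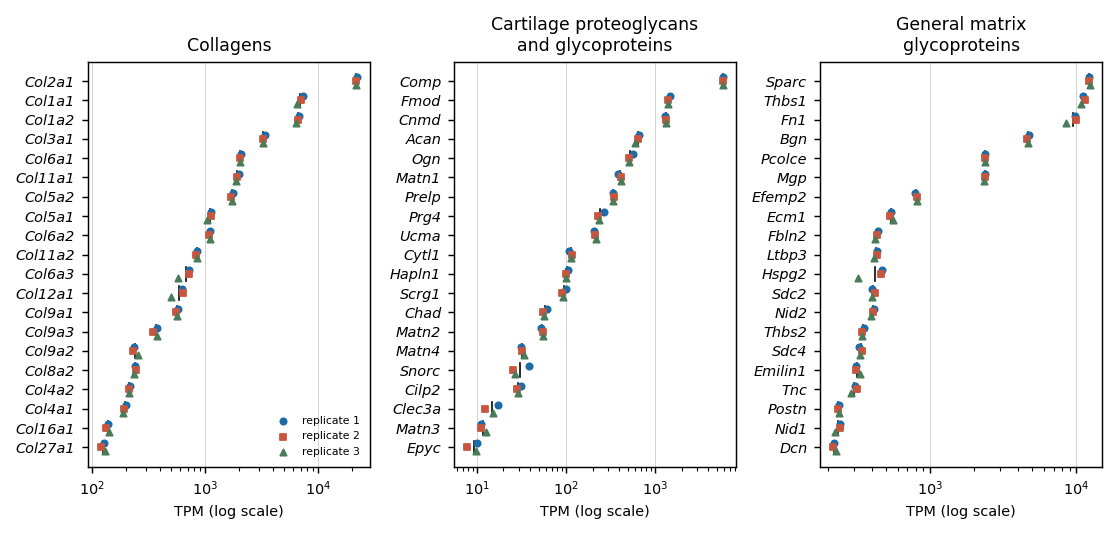
TPM on a log scale of the 20 most abundant collagens, cartilage proteoglycans and glycoproteins, and general matrix glycoproteins in control cultures with vehicle. Points are the 3 libraries and the black bar is their mean; points of most genes coincide, and those of *Hspg2*, *Col6a3* and *Col12a1*, all long transcripts, lie lower in replicate 3.

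Among 23 proteoglycans and glycoproteins of cartilage, 22 were detected and 11 were at 100 TPM or more. *Comp* led, followed by *Fmod* (fibromodulin, a regulator of collagen fibril width) at 1431 ± 37.8 TPM and *Cnmd* (chondromodulin, an inhibitor of vessel growth) at 1326 ± 35.1 TPM. *Acan* came next. *Matn1*, a matrilin of mature cartilage, was at 408 ± 17.1 TPM, *Ucma* at 212 ± 6.94 TPM and *Hapln1*, the link protein that fastens aggrecan to hyaluronan, at 102 ± 3.53 TPM. *Hapln1* was thus at a lower TPM than *Acan* in every library. Of 63 general matrix proteoglycans and glycoproteins, 58 were detected, and *Pcolce* (2385 ± 3.06 TPM), which helps to cleave procollagen, and *Mgp* (2359 ± 31.3 TPM), an inhibitor of mineralization, came after *Sparc*, *Thbs1*, *Fn1* and *Bgn*. *Dcn* (decorin, 221 ± 5.04 TPM) was far below *Bgn*, its close relative. *Spock1* and *Vtn* were at 3 counts or fewer in each library.

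*Hspg2*, the gene of perlecan, showed the widest gap between libraries of the abundant matrix genes. Its level was 2256, 2230 and 1556 CPM in replicates 1 to 3 and 2629 CPM in replicate 4. Differences between libraries also moved with transcript length, by less than the gap of *Hspg2*. Over 713 genes with transcripts above 8 kb, the median log2 difference of replicate 3 from the other 2 libraries was -0.06, against 0.04 over 1351 genes of 1 to 2 kb. Replicate 4 lay the other way, at 0.11 above 8 kb and -0.09 below 1 kb. The part of length in the values of single genes was not tested.

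The machinery that folds, trims and crosslinks collagen was represented in full, with 24 of 24 listed genes detected and 17 at 100 TPM or more. *P4hb*, a subunit of prolyl 4-hydroxylase, was at 2021 ± 26.2 TPM and *P4ha1*, its catalytic partner, at 665 ± 15.4 TPM. In summed TPM the listed proteases stood lower than the listed inhibitors, of which *Timp3* alone was at 5980 TPM. Gene by gene this did not hold, with the inhibitors *A2m* at 13.3 TPM and *Timp4* at 0.316 TPM. Of 41 matrix proteases 31 were detected, and their TPM summed to 4155 ± 22.5, against 14205 ± 172 for 12 inhibitors. The lysosomal protease *Ctsd* (1004 ± 2.37 TPM), the membrane collagenase *Mmp14* (635 ± 7.58 TPM) and the gelatinase *Mmp2* (470 ± 6.60 TPM) led the proteases. *Mmp13*, the collagenase of hypertrophic and osteoarthritic cartilage, was at 97.3, 92.6 and 105 TPM, and at 176 TPM in replicate 4. *Adamts5*, an aggrecanase, was at 77.3 ± 4.95 TPM. *Mmp7*, *Mmp8* and *Mmp10* were at 3 counts or fewer in each library. *Timp3* led the inhibitors, before *Timp2* (2012 ± 15.7 TPM), *Timp1* (1444 ± 28.0 TPM), *Cst3* (1391 ± 11.8 TPM) and *Serpine2* (1369 ± 27.2 TPM).

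Genes of different zones of the epiphysis were measured together, since a bulk library averages over its cells. In such a library, fewer cells of a type and less RNA per cell cannot be told apart. Of 16 genes of the joint surface and interzone, 14 were detected. *Sfrp2*, a secreted Wnt modulator, led them at 665 ± 15.2 TPM, while *Gdf5*, the joint-forming ligand, was at 23.2 ± 0.884 TPM and *Erg*, a transcription factor of articular progenitors, at 21.4 ± 1.22 TPM. The resting and growth plate list had 10 of 15 genes detected. *Npr3* (409 ± 18.4 TPM) and *Npr2* (144 ± 2.95 TPM), both receptors of the C-type natriuretic peptide, and *Fgfr3* (246 ± 4.20 TPM), the receptor that restrains growth plate proliferation, were abundant. The ligands of the growth plate loop were not. *Ihh* had 9, 9 and 7 counts, or 0.646 ± 0.148 TPM, and *Pthlh*, which encodes the parathyroid hormone-related peptide, had 1, 1 and 0 counts. *Nppc*, the gene of the C-type natriuretic peptide itself, had 0 counts in all 3 libraries, where 3 counts correspond to 0.161, 0.223 and 0.191 CPM. Receptors of these ligands, *Pth1r* (30.9 ± 1.23 TPM) and *Ptch1* (17.6 ± 0.255 TPM), were detected.

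Of 14 genes of hypertrophy and mineralization, 12 were detected and 1, *Spp1* (osteopontin), was above 100 TPM, at 1570, 1478 and 1584 TPM. *Vegfa* (85.6 ± 9.26 TPM), *Alpl* (28.1 ± 1.42 TPM) and *Runx2* (13.7 ± 1.51 TPM), the master regulator of hypertrophy and bone formation, were lower. *Ibsp* (11.1 ± 2.46 TPM) and *Panx3* (13.0 ± 0.685 TPM) were near the level of *Runx2*. All 25 genes of a proliferation list were above 10 TPM, led by *Rrm2* (260 ± 5.17 TPM), *Pcna* (215 ± 3.08 TPM) and *Top2a* (142 ± 5.80 TPM), which act in deoxyribonucleotide synthesis, replication and chromosome segregation. Of 24 genes of glycolysis and hypoxia, 23 were detected, with *Gapdh* at 2055 ± 79.5 TPM and *Ldha* at 1672 ± 34.3 TPM.

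Of 275 listed transcription factor genes, 241 were detected. Their TPM summed to 1.71% of the total, and their median of 21.3 TPM was close to the 23.2 TPM of all detected genes. The highest were stress and housekeeping factors: *Ybx1* at 1101 ± 29.4 TPM, *Atf5* at 1021 ± 14.1 TPM, *Atf4* at 875 ± 17.7 TPM, all tied to translation or the amino acid response, and *Nupr1* at 632 ± 19.7 TPM. *Id3*, a target of BMP signaling, came next at 602 ± 15.3 TPM. *Id1*, another such target, was lower at 216 ± 6.74 TPM, below *Ybx3* (433 TPM), *Nfe2l1* (430 TPM) and other listed factors. Among 105 factors of skeleton and limb, 96 were detected and 13 were at 100 TPM or more. *Nfix* led them at 334, 325 and 325 TPM, and *Snai1*, a repressor of epithelial genes, came next at 277, 275 and 298 TPM, an order that turned with the union of exons, at 434 TPM for *Nfix* and 507 TPM for *Snai1*. *Sox9* was the sixth of these factors, after *Pitx1*, *Tbx15* and *Nfic*. Its partners in cartilage were lower: *Sox6* was at 30.3 ± 0.342 TPM and *Sox5* at 13.1 ± 0.578 TPM. Mesenchymal factors of the early limb bud, *Prrx1* (127 ± 4.01 TPM), *Twist1* (112 ± 3.74 TPM) and *Snai2* (131 ± 7.25 TPM), stood at the level of *Sox9* or slightly below.

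Factors that give limbs their identity and their segments were present at levels that differed from gene to gene. *Pitx1*, which gives the hind limb its identity, was at 272, 248 and 255 TPM. *Tbx4*, its hind limb target, was at 43.1, 43.4 and 46.1 TPM, and *Tbx5*, the forelimb counterpart, at 6.43, 5.91 and 6.36 TPM. The libraries of *Tbx4* and *Tbx5* did not overlap, and both genes were present, in cultures that pooled hind and fore limbs. Of 39 *Hox* genes, 22 were detected. *Hoxa10* (132, 124 and 120 TPM), *Hoxc10* (75.2, 69.1 and 78.9 TPM) and *Hoxa11* (70.9, 65.4 and 70.5 TPM) were the highest, all of them genes that pattern the upper and middle segments of the limb. *Hoxa9* followed at 30.8 ± 1.89 TPM, and *Hoxa13*, a gene of the hand and foot, was at 7.88 ± 0.842 TPM. The *Hoxb* cluster was close to the limit of detection: *Hoxb9*, at 1.89 ± 0.161 TPM, was its most abundant gene, and *Hoxb1*, *Hoxb3*, *Hoxb4*, *Hoxb5*, *Hoxb6*, *Hoxb7* and *Hoxb13* had 3 counts or fewer in each library. In the *Hoxd* cluster, which acts in the same limb segments as *Hoxa*, *Hoxd8* (11.5 ± 1.60 TPM) and *Hoxd9* (7.69 ± 1.29 TPM) were the highest.

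**Figure D3:**
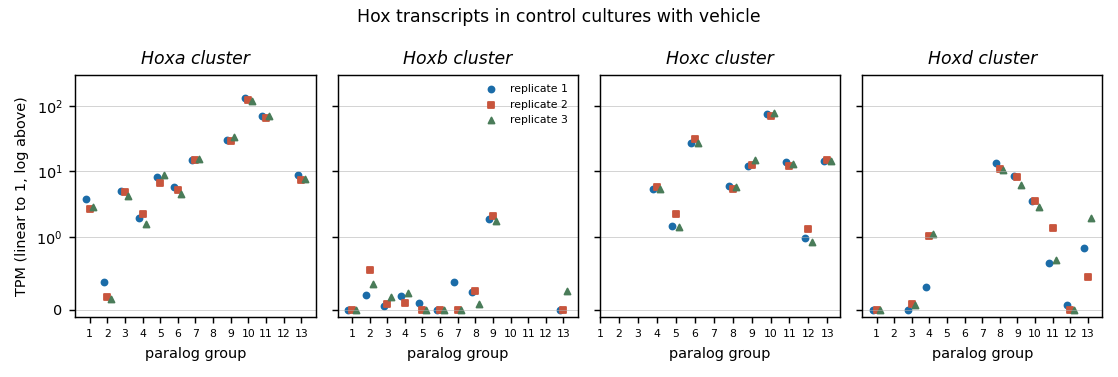
TPM of *Hox* genes by cluster and paralog group in the 3 control libraries with vehicle, on an axis that is linear to 1 and logarithmic above. *Hoxa10*, *Hoxc10* and *Hoxa11* form the peak, and the highest *Hoxb* point is *Hoxb9* in replicate 2, at 2.07 TPM.

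Of 214 listed secreted factors, 143 were detected and 44 were at 3 counts or fewer in each library. *Lgals1* (2840 ± 54.9 TPM) and *Ccn2* (2198 ± 59.5 TPM), a matricellular factor that is a target of TGFβ and YAP, led them. *Penk*, the precursor of the enkephalin peptides, was at 1540, 1532 and 1578 TPM, and *Ccn1* (1433 ± 31.5 TPM) and *Ccn5* (1291 ± 12.8 TPM) were close to it. Among the ligands of the TGFβ superfamily, *Gdf10* (187 ± 0.525 TPM), *Tgfb3* (178 ± 5.20 TPM) and *Bmp4* (163 ± 5.29 TPM) were the highest. Their antagonists included *Fstl1* (1077 ± 10.1 TPM) and *Grem1* (134 ± 6.44 TPM), while *Sost* and *Sostdc1* were at 3 counts or fewer. Some insulin-like growth factor binding proteins exceeded the growth factors, with *Igfbp4* at 1099 ± 13.3 TPM, *Igfbp5* at 956 ± 17.2 TPM and *Igfbp2* at 370 TPM. *Igf2* was at 197 ± 5.55 TPM and *Igf1* at 15.0 ± 1.81 TPM. *Igfbp6* (157 TPM), *Igfbp7* (136 TPM) and *Igfbp3* (21.4 TPM) were below *Igf2*, and *Igfbp1* was at 0. Of the Wnt ligands, *Wnt5a* was the highest at 25.6 ± 1.45 TPM, and the antagonists *Sfrp2*, *Dkk3* (216 ± 6.40 TPM), *Sfrp1* (90.1 ± 3.69 TPM) and *Frzb* (65.9 ± 1.70 TPM) all stood above it.

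Of 34 cytokines and osteoclast signals, 15 were detected and 14 were at 3 counts or fewer in each library. *Mif* was at 903 TPM and *Clcf1* at 37.2 TPM, while several inflammatory cytokines were close to silent. *Il1b*, *Il1a*, *Il10*, *Csf2*, *Ifnb1* and *Tnfsf10* had 0 counts in all 3 libraries, *Tnf* had 1, 0 and 1 counts, and *Il6* had 3, 2 and 4 counts. In replicate 4 *Tnf* had 10 counts and *Il6* had 12. Of the TNFα receptors, *Tnfrsf1a* was at 288, 285 and 298 TPM and *Tnfrsf1b* at 38.8, 41.5 and 41.5 TPM, a ratio of 7.16 ± 0.268. *Il6st*, the shared receptor chain of the interleukin 6 family, was at 353 ± 2.42 TPM. *Il6ra*, the receptor chain for interleukin 6 itself, was at 1.61 TPM. *Il1rn*, the interleukin 1 receptor antagonist, was at 224, 229 and 221 TPM. Of 27 chemokines, 10 were detected, and *Cxcl12*, a constitutive chemokine, was the only one at 100 TPM or more, at 361 ± 2.01 TPM, before *Ccl7* (76.2 ± 3.84 TPM) and *Ccl2* (56.0 ± 3.61 TPM). The summed TPM of the 27 genes was 629, 626 and 629 in the 3 libraries and 3273 in replicate 4.

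Signals for osteoclasts, the cells that resorb bone and mineralized cartilage, were uneven. *Csf1*, the macrophage growth factor, was at 1022, 1038 and 1020 TPM, the highest level among 34 cytokines. *Tnfrsf11b*, which encodes osteoprotegerin, the decoy receptor of RANKL, was at 451, 467 and 468 TPM. *Tnfsf11*, which encodes RANKL, was at 1.87, 2.30 and 1.44 TPM, far below both. In the Notch pathway 22 of 31 genes were detected. *Notch2*, the gene mutated in the other group of the study, was at 35.8, 37.7 and 29.0 TPM, or 2.85 ± 0.216 times *Notch1*, and *Notch3* was at 3.60 ± 0.232 TPM. The Notch ligand *Jag1* was at 13.2 ± 0.634 TPM. The Notch target *Hes1* was at 33.0, 25.3 and 38.0 TPM, and *Heyl* had 4, 2 and 4 counts. *Dll3*, *Dll4*, *Mfng* and *Nrarp* were at 3 counts or fewer in each library.

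Markers of blood cells were at the limit of detection, with macrophages as the exception. None of 12 T and NK cell, 7 B cell, 9 neutrophil and 8 erythroid genes reached 1 CPM in each library, and *Kit* did so alone among 8 mast cell genes, at 1.87 ± 0.184 TPM. *Cd3d*, *Cd3e*, *Cd3g*, *Ms4a1*, *S100a9*, *Cpa3* and *Hbb-bs* had 0 counts in all 3 libraries, as did *Hba-a1* and *Hba-a2*, whose near-identical sequences make such a 0 uncertain. Of 20 macrophage genes 13 were detected and their TPM summed to 110, 115 and 114. *Lyz2* was at 38.4, 39.5 and 39.0 TPM, *Cd68* at 20.6 ± 0.795 TPM and *C1qa* at 6.76 ± 0.589 TPM. *Aif1*, another macrophage gene, was at 3 counts or fewer in each library. Of 8 osteoclast genes, *Ctsk* (284 ± 5.36 TPM), *Nfatc1* and *Acp5* were detected, and *Dcstamp* and *Calcr* had 0 counts. Endothelial markers were low as well: of 13 genes, *Erg* alone, which is also on the joint list, was above 10 TPM, *Pecam1* had 8, 14 and 12 counts, *Cdh5* had 2, 10 and 6 counts, and *Sox17* had 0.

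Mesenchymal lineages other than cartilage were more visible. Of 18 fibroblast and perichondrium genes, 17 were detected and 12 were at 100 TPM or more, although *Fn1*, *Col1a1*, *Col1a2* and *Col3a1* among them are also matrix genes of the lists above. *Acta2*, the actin of smooth muscle and of contractile fibroblasts, was at 1527, 1609 and 1558 TPM and *Tagln* at 820, 845 and 823 TPM. *Myh11*, which is restricted to mature smooth muscle, had 1.23, 2.29 and 1.42 TPM. Of 8 tendon and ligament genes 7 were detected, with *Scx* at 53.8 ± 4.11 TPM and *Tnmd* at 40.5 ± 1.89 TPM. *Mkx* (5.82 TPM), *Egr2* (2.66 TPM) and *Kera* (0.237 TPM) were lower. Adipocyte genes were present too, with *Fabp4* at 145, 120 and 146 TPM, *Adipoq* at 51.4, 39.4 and 47.6 TPM, and *Pparg* at 22.0 ± 1.37 TPM, while *Lep* had 0 counts. Of the osteoblast genes, *Sp7*, which commits cells to bone, was at 8.66 ± 1.29 TPM. The late genes *Bglap* (osteocalcin, which shares sequence with *Bglap2*), with 3, 4 and 4 counts, and *Mepe*, with 0, were at or near the limit of detection. Of 15 skeletal muscle genes 6 were detected, led by *Acta1* at 27.1 ± 3.38 TPM. Of 12 neural and Schwann cell genes *S100b*, which chondrocytes also make, was at 90.8 ± 4.29 TPM and the rest were below 10 TPM. No keratin of the epithelial list was above 10 TPM, and *Krt5* and *Krt14* had 0 counts. Outside these lists, *Cdsn* (corneodesmosin, a protein of skin and hair follicle junctions, chosen after its values were seen) was at 1047, 1043 and 1055 TPM, rank 121 of all genes.

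**Figure D4:**
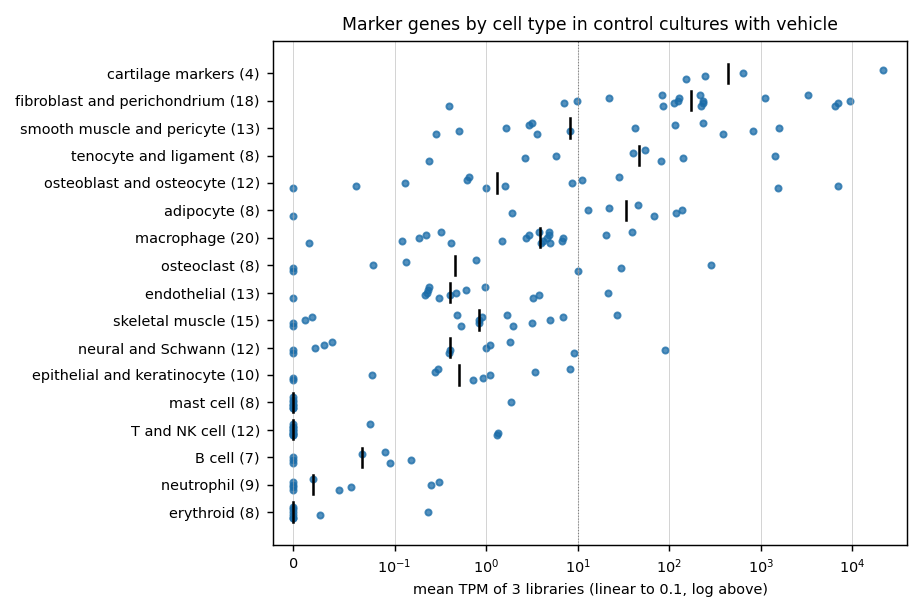
Mean TPM over the 3 control libraries with vehicle of marker genes of 17 cell types, on an axis that is linear to 0.1 and logarithmic above, with the number of genes in each list in brackets. Each point is a gene, the black bar is the list's median and the dotted line marks 10 TPM; cartilage and fibroblast markers lie highest, and those of T, B, mast and erythroid cells lie at or near 0.

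The spread between the libraries was small. Over 9225 protein-coding genes of at least 10 CPM, the median coefficient of variation was 4.41%, the 95th percentile was 11.9% and 19 genes were above 20%. The 30 most abundant genes had a median of 2.02%. The most variable gene was *Kmt5c*, a histone methyltransferase, at 13.4, 12.2 and 19.4 CPM, with 25.8%. *Enkd1*, *Mix23*, *Slc39a7*, *Mocs3*, *Irak1bp1*, *Ddit4l*, *Irx1*, *Zbtb37* and *Slc4a3* followed, all with levels between 10.2 and 23.0 CPM, so that the list held genes of low level. *Rpl38*, the reference gene of the study's PCR, was at 194, 198 and 186 CPM. *Xist*, expressed from the inactive X of female cells, was at 302, 289 and 249 CPM, and the Y-linked *Ddx3y* at 24.4, 24.6 and 24.3 CPM, in libraries that the labels give as pooled over both sexes.

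The first comparison asked how this baseline stood to that of *Notch2tm1.1Ecan* cells with the same vehicle. By edgeR's quasi-likelihood test with an adjusted p under 0.05 and at least a 2-fold difference, 231 of 19089 genes (1.21%) passed, 189 higher in the mutant cells (0.990%) and 42 lower (0.220%), and 0 of the 30 most abundant genes were among them. By adjusted p alone, 10.4% of all genes passed, 5.78% higher and 4.59% lower, and 7 of the 30 genes were higher and 5 lower, all by less than 2-fold. The cartilage markers were all lower in the mutant cells by less than 2-fold. *Col2a1* was at 38082, 36859 and 37576 CPM in control cells and at 25982, 21974, 22225 and 23479 CPM in mutant cells, without overlap (log2 fold change -0.69 ± 0.05 SE, edgeR adjusted p = 7.43e-09). *Acan* differed by -0.68 ± 0.05 (adjusted p = 8.08e-10) and *Prg4* by -0.85 ± 0.06 (adjusted p = 2.14e-09). *Sox9* differed by -0.46 ± 0.05 (adjusted p = 5.21e-07). All 7 cartilage collagens were lower by adjusted p alone, with a median of -0.61 against -0.0029 over all genes tested, and 15 of 23 cartilage proteoglycans and glycoproteins were lower with a median of -0.66, of which *Cilp2* passed 2-fold (-1.31 ± 0.08). *Cnmd* (-0.88 ± 0.04) and *Matn1* (-0.80 ± 0.05) were among the others. *Thbs1* was at 23057 ± 571 CPM in control and 23142 ± 754 CPM in mutant cells, with overlapping libraries (adjusted p = 0.972). The regional factor *Tbx4* also overlapped between the groups (0.00 ± 0.06, adjusted p = 0.990). *Col1a1* was higher by 0.22 ± 0.04 (adjusted p = 0.00168), opposite in sign to *Col2a1*.

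Gene lists of other cell types differed in what they did. Macrophage, endothelial, smooth muscle and skeletal muscle genes were called higher. In the lists of fibroblasts, osteoblasts, adipocytes, osteoclasts, epithelium, B cells and neutrophils 0 genes were called, and the epithelial median was -0.59. Of 3 T and NK cell genes tested 1 was called higher, in a list that summed to 0.668 to 1.98 CPM in control libraries. Of 9 neural and Schwann cell genes tested 1 was called higher, and 0 with control replicate 4 included. By adjusted p alone 9 of 18 fibroblast and 6 of 7 adipocyte genes tested were higher, and 2 of 8 epithelial genes tested were lower. Of 8 tenocyte genes 1 was called, *Tnmd*, from 18.4 to 40.7 CPM (1.14 ± 0.08, adjusted p = 1.96e-10), with a list median of -0.08 and a sum of 1788 to 1863 CPM in control and 1370 to 1422 CPM in mutant libraries. Of 20 macrophage genes 10 were called higher and 0 lower, with a median of 1.16. *C1qc* rose from 2.97 ± 0.362 CPM to 11.5, 9.84, 8.05 and 8.36 CPM (log2 fold change 1.64 ± 0.16, adjusted p = 1.37e-07), and the summed level of the list was 87.0 to 93.8 CPM in control and 164 to 194 CPM in mutant libraries. Of 13 endothelial genes 6 were higher, among them *Flt1*, a receptor for VEGF, from 2.23 ± 0.361 to 7.43 ± 1.03 CPM (1.69 ± 0.17, adjusted p = 2.51e-07). Of 13 smooth muscle genes 5 were higher, *Tagln* from 449, 463 and 457 CPM to 927 ± 77.3 CPM (1.01 ± 0.06, adjusted p = 4.89e-11), and the sum was 2859 to 2941 CPM in control and 4681 to 5355 CPM in mutant libraries. Of 13 skeletal muscle genes tested 6 were higher, in a list whose sum was 28.3 to 33.4 CPM in control and 49.4 to 58.1 CPM in mutant libraries, and 3 were higher with control replicate 4 included. Of 19 chemokines tested 0 were called, and by adjusted p alone 6 were higher and 0 lower, against 5.78 and 4.59% of all genes tested. The sum of the list was 817 to 830 CPM in control and 1385 to 1534 CPM in mutant libraries. *Cxcl12* was higher by less than 2-fold, from 682 ± 5.31 to 1266 ± 53.7 CPM (0.88 ± 0.04, adjusted p = 1.9e-12). *Tnfrsf11b*, the osteoprotegerin gene, was lower by less than 2-fold (-0.84 ± 0.05, adjusted p = 8.08e-12). Among Notch genes, *Heyl* rose from 0.206 ± 0.0539 to 1.92 ± 0.414 CPM (3.18 ± 0.39, adjusted p = 2.91e-06) and *Notch3*, which is also a pericyte marker, from 9.70 ± 0.565 to 26.0 ± 1.72 CPM (1.41 ± 0.09, adjusted p = 1.76e-10). *Eln*, the elastin gene, rose from 101 ± 3.57 to 314 ± 18.6 CPM (1.62 ± 0.06). The part of these cell types in the lower cartilage genes was not tested. Sex genes differed between these libraries as well: *Xist* was at 145 CPM in mutant replicate 1 and at 278 to 306 CPM in the others, and *Ddx3y* was at 24.4 ± 0.196 CPM in control and 27.8, 36.9, 37.8 and 37.2 CPM in mutant libraries, and the part of sex in the differences was not tested. Without mutant replicate 1, 326 genes passed, and the macrophage count was 9, the endothelial 7 and the smooth muscle 3.

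The second comparison set the baseline beside control cells with TNFα and shares its control libraries with the first. Here 2399 of 18991 genes (12.6%) passed, 1730 higher with TNFα (9.11%) and 669 lower (3.52%). By adjusted p alone 45.0% passed, 23.5% higher and 21.6% lower. The replicate numbered 4 of the TNFα group stood toward the baseline, with *Ccn2* at 196, 209, 186 and 551 CPM in TNFα replicates 1 to 4 against 1998 ± 69.6 CPM in control cells. Without it 2509 genes passed, and with control replicate 4 included 2279. Most of the 30 abundant genes kept their level within 2-fold, but 4 fell and 1 rose, and by adjusted p alone 9 were lower and 11 higher. *Thbs1* fell from 23057 ± 571 CPM to 6877, 6075, 5330 and 10324 CPM (log2 fold change -1.74 ± 0.26, adjusted p = 0.00325). *Timp3* fell to 2736 ± 632 CPM (-1.84 ± 0.20, adjusted p = 0.000735), and *Actb* (-1.26 ± 0.16) and *Mest* (-1.22 ± 0.10) fell too. *Fth1*, the ferritin heavy chain, rose from 1160 ± 38.9 to 2987 ± 339 CPM (1.30 ± 0.07, adjusted p = 1.28e-08).

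Among the cartilage markers, *Sox9* fell from 213 ± 7.57 CPM to 64.7, 77.5, 66.2 and 109 CPM (-1.47 ± 0.21, adjusted p = 0.0026) and *Acan* from 1630 ± 80.8 to 675 ± 151 CPM (-1.33 ± 0.20, adjusted p = 0.00313). *Col2a1* was lower by less than 2-fold (-0.48 ± 0.05, adjusted p = 5.15e-06), and *Prg4* was higher by less than 2-fold (0.68 ± 0.08, adjusted p = 1.03e-05). Of the growth plate list 5 genes fell and 1 rose. *Fgfr3* fell from 346 ± 6.50 to 71.5 ± 29.6 CPM (-2.32 ± 0.32, adjusted p = 0.00222) and *Npr3* from 401 ± 15.8 to 58.9 ± 40.9 CPM (-2.80 ± 0.52, adjusted p = 0.00735). *Pthlh*, at or under 1 count in the baseline libraries, was at 3.19, 1.67, 2.29 and 2.29 CPM with TNFα, at least 12.3-fold above 3 counts per control library. Of the transcription factors abundant at baseline, *Snai1* fell from 153 ± 8.23 to 36.1 ± 12.7 CPM (-2.12 ± 0.27, adjusted p = 0.0015), while the limb factors *Tbx4* (0.06 ± 0.06, adjusted p = 0.449) and *Hoxc10* (-0.05 ± 0.06, adjusted p = 0.581) had overlapping groups. Their lists did move. Of 105 skeletal and limb factors 4 rose and 10 fell, against 9.11 and 3.52% of all genes tested. By adjusted p alone 19 were higher and 45 lower, against 23.5 and 21.6%. Of 31 *Hox* genes tested 0 rose and 2 fell, and the list's sum was 345 to 363 CPM in control and 282 to 313 CPM in TNFα libraries. *Hes1* fell from 16.4 ± 3.36 to 3.31 ± 1.57 CPM (-2.33 ± 0.32, adjusted p = 0.000817), and *Gdf10* from 342 ± 3.03 to 58.7 ± 32.6 CPM (-2.58 ± 0.42, adjusted p = 0.0043). *H19* fell from 5171 ± 178 to 2154 ± 316 CPM (-1.32 ± 0.13, adjusted p = 0.0004), and 7 of 20 imprinted genes fell with 0 rising. *Cilp2*, which was lower in the mutant cells, rose with TNFα from 42.4 ± 2.30 to 291 ± 24.0 CPM (2.71 ± 0.06), and *Mmp13* rose from 87.5 ± 6.24 to 570 ± 68.3 CPM (2.64 ± 0.08, adjusted p = 7.36e-12).

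Of 27 chemokines 21 rose, against 9.11% of all genes tested, and 1, *Cxcl14*, fell. Their median log2 fold change was 4.00 against 0.04 over all genes. Control replicate 4 was set aside for transcripts of this kind, so the low baseline of these genes follows in part from that choice. *Ccl2* rose from 15.2 ± 1.05 to 1342 ± 183 CPM (6.41 ± 0.12, adjusted p = 2.1e-10). *Ccl5* went from 0.199 ± 0.106 to 1223 ± 164 CPM (12.40 ± 0.22, adjusted p = 5.53e-10) and *Cxcl10* from 0.686 ± 0.273 to 1553 ± 197 CPM (11.02 ± 0.18, adjusted p = 2e-10), in control libraries of 2 to 16 counts. The constitutive *Cxcl12* stayed within 2-fold (-0.23 ± 0.04, adjusted p = 0.0001). *Tnf* itself reached 4.12 ± 0.506 CPM, at least 21.5-fold above 3 counts per control library. With control replicate 4 included 19 of the 27 chemokines were called higher and 1 lower, as were 19 and 1 without TNFα replicate 4. Of 25 proliferation genes 2 fell, *Rrm2* among them (-1.33 ± 0.14, adjusted p = 0.000314), against 3.52% of all genes tested. By adjusted p alone 20 of the 25 were lower, against 21.6% of all genes tested. Of 7 adipocyte genes tested 3 fell, led by *Pparg* (-2.34 ± 0.41, adjusted p = 0.00574).

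**Figure D5:**
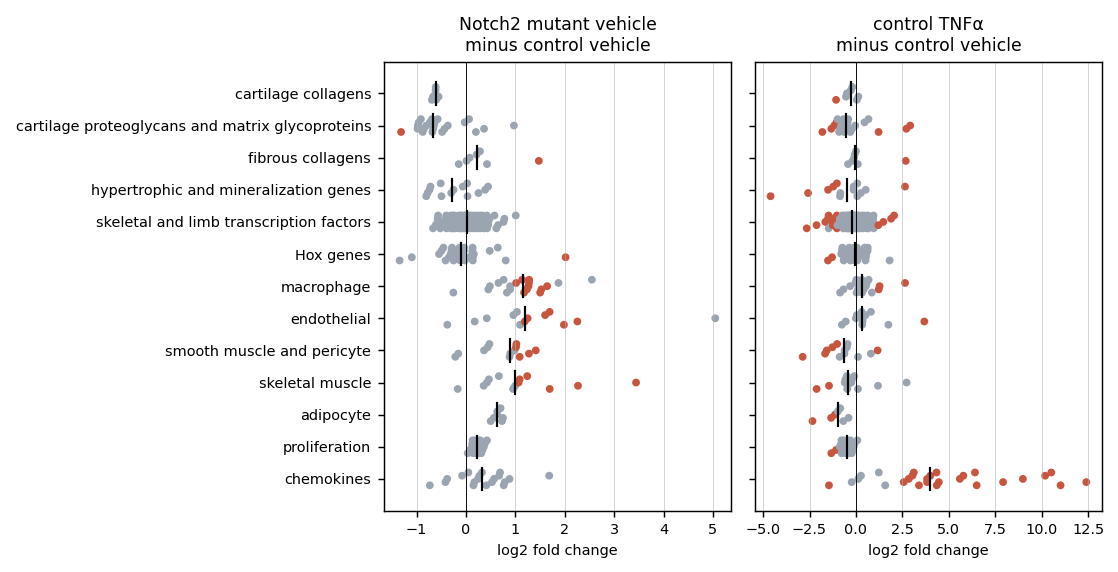
Log2 fold change, other group minus control cells with vehicle, of the members of 13 gene lists, for *Notch2tm1.1Ecan* cells with vehicle on the left and control cells with TNFα on the right, on axes of different range. Red points passed an adjusted p under 0.05 and 2-fold, grey points did not, and the black bar is the list's median; the cartilage collagens lie left of 0 in the mutant cells and the chemokines lie right of 0 with TNFα.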

How the data were processed

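The authors deposited 1 file of whole-number counts per library, without normalization. Per the paper's methods, stranded mRNA libraries were sequenced in 1 pool, trimmed with Trimmomatic, mapped with HISAT2 to GRCm39 and counted on Ensembl genes with htseq-count. The submitters' processing notes name HISAT2 2.1.0, SAMtools 1.9 and GRCm38, so the build is stated in 2 ways. The strand setting is not given in the sources used here. Of 55414 gene identifiers 54749 were matched to GENCODE M39 of GRCm39, which gave names, positions and lengths. The 665 others held 0.0163% of counts and stayed out of TPM, and 5 entries that name no gene were left out of totals. Depth of the 16 libraries ranged from 3439726 to 44237300 counts. A level of 3 counts, 0.192 CPM on average over the 3 control libraries, was the floor of detection, and it covers counting error only.

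CPM was the count over the library total. TPM used the length of the Ensembl canonical transcript. The union of all exons had been planned, but it was 1.64 times the canonical length in the median detected gene and over 1.5 times in 57.2%, so it was kept as an alternative after the annotation was seen. Errors are SDs over 3 libraries or, for fold changes, standard errors. Comparisons used edgeR 4.0.16 with limma 3.58.1, run in R 4.3.3 (TMM, at least 10 summed counts, quasi-likelihood test with robust dispersions, Benjamini-Hochberg adjustment over all genes tested), with biological coefficients of variation of 6.56 and 6.87%. Alternatives were DESeq2 1.42.0, RLE, other filters, a replicate block and each library left out. The fits were tested on simulated data. Levels were computed in Python 3.11.15 with numpy 2.4.6 and pandas 2.3.3, and plotted with matplotlib 3.10.9.

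The members, the 48 gene lists and the tests were chosen with earlier results of these data known. Genes were named by a rule: the 4 markers, the 30 protein-coding genes of highest TPM, up to 10 leading members of each list and members at 3 counts or fewer, the 10 most variable genes, up to 3 called members per list and direction, sex genes, *Rpl38* and collagen chains. *Adamts5*, *Cdsn*, *Hoxa13*, *Hoxb9*, *Hoxd9*, *Hspg2*, *Il6*, *Notch1*, *Notch2*, *Rn18s-rs5*, *Sox6*, *Tbx4*, *Tbx5*, *Tnfsf11* and *Twist1* fell outside it and were chosen after their values were seen.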

Additional observations from a re-analysis of the deposited data

Results flagged for a closer look

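In each of 48 gene lists, the summed TPM of the 4 control libraries with vehicle was searched for 1 library far from the others, a search that by chance marks about 1 list in 20. It marked 7 lists. Replicate 4 had been left out of the baseline for its TNFα-induced transcripts, so its high values restate that choice and add no evidence to it. Replicate 4 stood high for the TNFα-induced transcripts (4244 TPM, the others 455 to 469), the chemokines (3273 TPM, the others 626 to 629) and the NF-κB and TNF signaling genes (1272 TPM, the others 1025 to 1057), and lists share members. It stood low for the collagen maturation genes (14023 TPM, the others 14663 to 14744) and the resting and growth plate genes (1179 TPM, the others 1277 to 1290). Replicate 3 stood low for the general matrix proteoglycans and glycoproteins (49210 TPM, the others 51364 to 51628), and replicate 1 for the mast cell genes (1.66 TPM, the others 1.95 to 2.00), a sum that came from *Kit* alone.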

How the results depend on the processing

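The number of detected genes stayed within 1.5 times of 12681 under every alternative, with replicate 4 and without each of replicates 1 to 3. The 10 most abundant genes took 9.67% in TPM in place of 14.8% of counts, a different scale, and 14.7 to 15.0% without each replicate. With the union of exons as the length, 174 of 424 named genes moved by over 1.5-fold in mean TPM, against 31 with the longest transcript, 18 with replicate 4 and 0 with TMM scaling.

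In the mutant comparison, 231 genes became 1980 with no fold cutoff, 201 with DESeq2, 266 with no filter beyond 1 count, 205 with the replicate number as a block, 244 with control replicate 4, and 183 to 326 without 1 library. *Mmp9* (1.64) turned to -0.38 with control replicate 4, where it had 112 counts against 4 to 11. In the TNFα comparison, 2399 became 8549 with no fold cutoff, 2190 with DESeq2, 1953 with filterByExpr, 2475 with the block, 2279 with control replicate 4, 2365 with it and without TNFα replicate 4 (added after the data were seen), and 2176 to 2509 without 1 library. Correlations of same-numbered libraries were of both signs, from -0.17 to 0.23, so the numbers were not taken to pair samples. Of the named called genes, the block lost 6 of 37 and 3 of 135. Depth limits genes near 3 counts.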
